A study of Mus musculus with 22 samples.

Results

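Mouse embryonic fibroblasts given the reprogramming factors Oct4, Sox2 and Klf4 (OSK) were cultured in a medium without GSK3 inhibitors, and their RNA was compared with that of OSK fibroblasts on the same days. The comparison holds 4 of the 22 samples of the series: OSK without GSK3 inhibitors (minus-GSK3i) on days 3 and 7, and OSK on days 3 and 7, with 1 library per medium and day. They were chosen by their labels and not by a measured value, but earlier results of these data were known when the comparison was chosen. The fibroblasts came from OG2 transgenic mice, which carry a GFP reporter driven by Oct4 (Pou5f1) regulatory sequence, and were at passage P2. All 4 libraries share a mixed strain background that is 1/2 129SVJ, with 3/8 from C57B6 and 1/8 from CBA. Cells were transfected with OSK for 2 days, total RNA was taken on day 3 or day 7, and TruSeq libraries were sequenced. The minus-GSK3i medium contained neither CHIR-99021, a small-molecule inhibitor of GSK3, nor LiCl, so the omission removes both agents and their parts cannot be told apart. The labels give neither the means of transfection nor the number of mice or cultures behind a library. Other media in the series, OSK without bFGF (a fibroblast growth factor) and OSK without vitamin C, are labelled as omitting another component, and serve as a further comparison on the same days with 2 libraries each. Their labels do not list the GSK3 inhibitors as omitted.

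GSK3 is a pair of kinases, Gsk3a and Gsk3b, that phosphorylate beta-catenin inside a destruction complex built on Axin and Apc, and so mark it for degradation. When GSK3 is inhibited, or when a Wnt ligand binds its Frizzled and Lrp receptors, beta-catenin accumulates, enters the nucleus and joins the DNA-binding proteins of the TCF/LEF family, which then activate their targets. In mouse embryonic stem cells 1 member of that family, Tcf7l1, represses genes of the pluripotency network, and GSK3 inhibition relieves this repression. Lithium also inhibits the inositol monophosphatases, which recycle inositol in phosphoinositide signalling.

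Promoter windows are given for Axin2, a target described in full in the results, and for Sp5 and Tnfrsf19, the 2 listed targets with a matched window that holds the TCF/LEF motif searched. The sequences are RefSeq's on GRCm38.p6 and run from 250 bases before to 50 bases after a gene start, 5′ to 3′ on the gene's strand. Capitals mark the TCF/LEF motif CTTTGAT, or ATCAAAG where it lies on the other strand. The window of Axin2, a scaffold of the destruction complex, is chr11:108920099-108920398 (plus strand). The window of Sp5, a zinc finger transcription factor, is chr2:70474673-70474972 (plus strand). The window of Tnfrsf19 (Troy), a receptor of the tumour necrosis factor receptor family, is chr14:61037938-61038237 (minus strand), and belongs to an internal start of the gene. The window of its upstream start (chr14:61046806-61047105) does not contain the motif and is not printed.
Axin2: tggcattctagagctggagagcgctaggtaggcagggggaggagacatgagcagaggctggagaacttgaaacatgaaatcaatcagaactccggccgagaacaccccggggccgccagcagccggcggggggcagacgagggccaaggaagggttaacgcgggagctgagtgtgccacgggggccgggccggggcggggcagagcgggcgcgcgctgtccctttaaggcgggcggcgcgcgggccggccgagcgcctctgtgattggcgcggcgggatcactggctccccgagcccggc
Sp5: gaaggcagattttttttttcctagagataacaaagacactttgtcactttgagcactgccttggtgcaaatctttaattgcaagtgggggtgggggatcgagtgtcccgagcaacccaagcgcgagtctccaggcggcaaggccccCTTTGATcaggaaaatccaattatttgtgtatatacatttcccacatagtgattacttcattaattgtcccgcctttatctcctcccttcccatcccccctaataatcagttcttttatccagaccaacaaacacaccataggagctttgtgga
Tnfrsf19: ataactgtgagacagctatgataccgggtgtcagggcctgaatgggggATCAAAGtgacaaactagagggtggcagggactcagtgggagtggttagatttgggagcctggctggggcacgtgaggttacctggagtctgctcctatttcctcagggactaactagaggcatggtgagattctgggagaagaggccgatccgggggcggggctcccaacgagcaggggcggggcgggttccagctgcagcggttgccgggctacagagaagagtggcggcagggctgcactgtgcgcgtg
The motif starts 104 bases before the gene start in Sp5 and 202 bases before it in the Tnfrsf19 window, and the Axin2 window does not contain it. RefSeq windows were matched for 16 of the 28 Wnt target genes listed for this comparison, and 2 of the 16 (12.5%) hold the motif on either strand in at least 1 window. The share was 4.29% of all genes with a window, 3.13% of the genes tested and 3.75% of the genes lower in minus-GSK3i. A match is a description of the letters and not a binding site, and no match says only that these letters are not in the window.

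The 4 libraries held 12500468 (day 3) and 11612535 (day 7) assigned reads in minus-GSK3i, and 9226548 (day 3) and 15420109 (day 7) in OSK. Levels are CPM, expected counts scaled to a common library size with TMM factors, and 3 counts correspond to between 0.181 and 0.314 CPM in these 4 libraries. Changes are log2 fold changes fitted with edgeR over 8 libraries, those of OSK, minus-GSK3i, OSK without bFGF and OSK without vitamin C on both days, with a block for day. With 1 library per medium and day the error is how far differences between media vary between the days, on 3 residual degrees of freedom, and not a spread between cultures. Vim, a fibroblast marker named after its values were seen, was abundant in all 4 libraries, with 2598 and 2425 CPM in minus-GSK3i, against 2208 and 2028 CPM in OSK (0.26, adjusted p = 0.499). Benjamini-Hochberg adjustment was made over 14191 genes with a threshold of 0.05. The OSK libraries differ from all omission libraries in a technical feature as well. The processed pseudogene Rpsa-ps10 held 0.143% and 0.175% of the reads given to it and Rpsa together in minus-GSK3i, against 7.02% and 6.69% in OSK, and 0.124 to 0.37% in the other omission libraries. The labels name no library set or batch, so this is known only from the counts. Medium and this feature cannot be told apart in the comparison with OSK, whereas the omission libraries are alike in it. The omission libraries still differ in base composition, and minus-GSK3i differs in it from OSK. For the genes of lowest GC content, the median deviation from the mean of the 8 libraries was −0.46 and −0.31 log2 in minus-GSK3i. In OSK it was 0.10 and 0.53 log2, without bFGF −0.53 and 0.05 log2, and without vitamin C 0.26 and 0.40 log2. The 2 comparisons share the minus-GSK3i libraries, so their values are given side by side and are not independent.

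Against OSK, 1415 genes were higher in minus-GSK3i (9.97% of the genes tested) and 1895 were lower (13.4%), together 23.3%. With the GC trend removed 588 were higher and 764 lower, and with only the 4 libraries of both media 291 and 547. Against the other omission media 611 genes were higher (4.31%) and 772 were lower (5.44%), together 9.75%. In both comparisons 366 genes were higher and 646 were lower, 2.58% and 4.55% of the genes tested. Median fitted changes over all genes tested were 0.01 against OSK and −0.01 against the other omission media. The calls rest on the minus-GSK3i day 7 library and on the day block. Without that library edgeR called 3 genes higher and 2 lower against OSK, with 2772 genes at an unadjusted p under 0.05, and 13 higher and 1 lower against the other omission media. Without the day block it called 0 genes in either direction against OSK, with 3398 at an unadjusted p under 0.05, and limma on TPM with the block called 1350 higher and 1244 lower. Of the 167 genes examined singly that passed against OSK, 4 (Cxcl12, Mgp, Gm26527 and Rpsa-ps10) passed without the minus-GSK3i day 7 library, and 166 kept their direction.

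**Figure D1:**
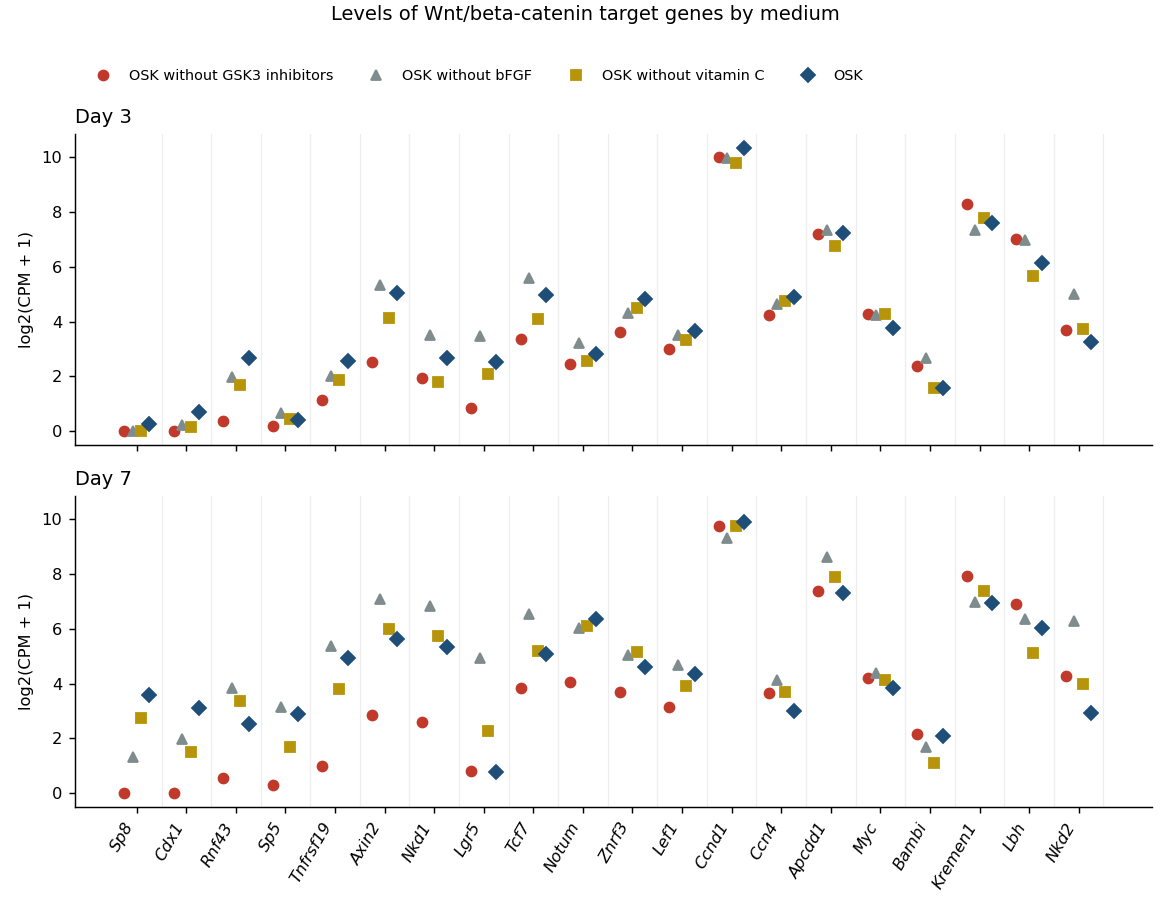
Levels, as log2(CPM + 1), of the 20 tested Wnt target genes on day 3 (upper panel) and day 7 (lower panel), ordered by fitted change against OSK, with 1 point per library and colours for minus-GSK3i, the other omission media and OSK. Axin2, Rnf43, Tcf7 and Znrf3 lie below OSK in minus-GSK3i on both days, and Kremen1 and Lbh lie above it.

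Direct Wnt/beta-catenin targets were more often lower than higher without the inhibitors. Of 28 listed members 20 had enough counts to be tested, and 10 of the 20 fell and 2 rose against OSK, with a median change of −1.30. Against the other omission media 8 fell and 2 rose, with a median of −1.23. Of all genes tested 13.4% fell and 9.97% rose against OSK, and 5.44% fell and 4.31% rose against the other omission media. The 2 targets that rose against OSK were thus near the rate over all genes. The 8 members not tested were Dkk1, Dkk4, T, Cdx2, Cdx4, Ascl2, Fgf20 and Zcchc12. Both minus-GSK3i libraries lay below all 6 other libraries for 8 of 20 genes (40.0%), namely Axin2, Cdx1, Lef1, Rnf43, Sp5, Tcf7, Tnfrsf19 and Znrf3, as they did for 7.79% of all genes tested. With the minus-GSK3i day 7 library left out edgeR called 0 of 21 members against OSK, 8 of them at an unadjusted p under 0.05 (6 lower, 2 higher), and the median was −0.69. Without the OSK without bFGF day 7 library, 2 fell against the other omission media.

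Axin2 (ENSMUSG00000000142, chromosome 11, 108920349 to 108950783, plus strand, mm10) encodes a scaffold of the destruction complex that is itself induced by beta-catenin. It had 4.80 CPM (day 3) and 6.16 CPM (day 7) in minus-GSK3i, against 31.9 and 48.4 CPM in OSK. The other omission media held 39.5 and 134 CPM without bFGF and 16.4 and 63.5 CPM without vitamin C. Both minus-GSK3i libraries lay below all 6 others. Counting intervals (exact Poisson, 95%) were 3.7 to 6.12 and 4.89 to 7.67 CPM in minus-GSK3i, and 28.4 to 35.7 and 45.1 to 51.9 CPM in OSK. These intervals cover counting error only. Axin2 was 6.65-fold lower on day 3 and 7.86-fold lower on day 7, and its fitted change was −2.85 (SE 0.40, edgeR, adjusted p = 0.00268). Against the other omission media it was −3.17 (adjusted p = 0.00264). It kept its direction in all 17 alternative analyses against OSK and passed in 15. Without the minus-GSK3i day 7 library the change was −2.40 (adjusted p = 0.0678), and without the day block −2.86 (adjusted p = 0.12).

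The TCF/LEF factors that are targets of their own pathway moved the same way. Tcf7 had 9.38 and 13.3 CPM in minus-GSK3i on days 3 and 7, against 30.5 and 33.2 CPM in OSK, and 16.2 to 92.6 CPM in the other omission media. The groups did not overlap, and the fitted change was −1.52 (SE 0.27, edgeR, adjusted p = 0.0052), or −1.84 against the other omission media (adjusted p = 0.00351). Lef1 had 6.94 and 7.93 CPM, against 11.5 and 19.4 CPM in OSK, a smaller change of −0.99 (SE 0.29, adjusted p = 0.0361). It did not pass against the other omission media (−0.85, adjusted p = 0.0697).

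Feedback inhibitors at the receptor were also lower. Rnf43 and Znrf3 are membrane ubiquitin ligases that remove Frizzled receptors. Rnf43 had 0.295 and 0.462 CPM in minus-GSK3i, against 5.33 and 4.83 CPM in OSK, which was 18.1-fold lower on day 3 and 10.5-fold lower on day 7 (−3.89, SE 0.72, edgeR, adjusted p = 0.00645). Znrf3 had 11.4 and 12.1 CPM, against 27.3 and 23.5 CPM in OSK (−1.12, SE 0.28, adjusted p = 0.0192). Neither overlapped with any of the 6 other libraries, and both passed against the other omission media (Rnf43 −3.97, adjusted p = 0.00882, and Znrf3 −1.14, adjusted p = 0.0207). Notum, a secreted enzyme that removes the lipid from Wnt ligands, differed mainly on day 7. It had 4.50 and 15.8 CPM, against 6.07 and 82.0 CPM in OSK (−1.48, SE 0.43, adjusted p = 0.0376), and did not pass against the other omission media (−1.33, adjusted p = 0.0642). Nkd1, a cytoplasmic antagonist, had 2.88 and 5.08 CPM, against 5.33 and 39.1 CPM in OSK, and did not pass (−1.89, adjusted p = 0.113).

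Several targets were near the floor without the inhibitors. Sp5 had 2 counts (0.148 CPM) on day 3 and 3 counts (0.231 CPM) on day 7 in minus-GSK3i, against 3 counts (0.314 CPM) and 105 counts (6.35 CPM) in OSK. The gap was on day 7, and the fitted change was −3.73 (SE 0.78, edgeR, adjusted p = 0.00944). Tnfrsf19 had 1.18 and 1.00 CPM, against 4.92 and 29.3 CPM in OSK (−3.47, SE 0.77, adjusted p = 0.0174), and passed against the other omission media (−2.98, adjusted p = 0.0414). Cdx1, a caudal homeobox factor, had 0 counts in both minus-GSK3i libraries, against 6 counts on day 3 and 128 counts on day 7 in OSK. With a floor of 3 counts per library it was at least 2.83-fold lower on day 3 and at least 33.5-fold lower on day 7 (adjusted p = 0.00184, and 0.00834 against the other omission media). Sp8, a relative of Sp5, also had 0 counts in both, against 2 and 183 counts in OSK, and was at least 47.9-fold lower on day 7 (adjusted p = 0.00228, or 0.179 with DESeq2).

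Not every listed target followed. Kremen1, a co-receptor of the Dkk antagonists, had 311 and 242 CPM in minus-GSK3i, against 195 and 122 CPM in OSK (0.84, SE 0.21, edgeR, adjusted p = 0.0178). Lbh, a transcriptional cofactor, had 128 and 118 CPM, against 70.6 and 64.2 CPM in OSK (0.88, SE 0.22, adjusted p = 0.0178). Both lay above OSK on both days, and both passed against the other omission media (0.74, adjusted p = 0.0245, and 0.93, adjusted p = 0.0125). Ccnd1, which encodes cyclin D1, had 1025 and 865 CPM, against 1306 and 951 CPM in OSK, and did not pass (−0.23, adjusted p = 0.505). Myc had 18.3 and 17.3 CPM, against 12.7 and 13.3 CPM in OSK (0.47, adjusted p = 0.165). Lgr5, a receptor for R-spondins, had 0.812 and 0.770 CPM, against 4.71 and 0.725 CPM in OSK, so that only day 3 differed (−1.66, adjusted p = 0.256). Nkd2, a relative of Nkd1, lay in opposite directions in the 2 comparisons, at 0.93 against OSK (adjusted p = 0.0828) and −0.81 against the other omission media (adjusted p = 0.123), and passed neither. Apcdd1, Bambi and Ccn4 did not pass either.

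The transcripts of the destruction complex itself, and of the nuclear partners of beta-catenin, mostly did not pass, like most genes tested. All 18 listed genes were tested, and 3 rose and 0 fell against OSK by edgeR, beside 9.97% and 13.4% of all genes tested. At an unadjusted p under 0.05, 2 of the 18 were lower, and the median change was 0.04. DESeq2 called 3 higher and 2 lower. Beta-catenin (Ctnnb1) had 1203 and 1195 CPM in minus-GSK3i, against 1207 and 1295 CPM in OSK (−0.05, SE 0.22, adjusted p = 0.885). The kinase genes did not pass: Gsk3a had 104 and 103 CPM, against 68.5 and 78.2 CPM in OSK (0.50, adjusted p = 0.105), and Gsk3b had 186 and 186 CPM, against 269 and 195 CPM in OSK (−0.31, adjusted p = 0.366). Inhibition of a kinase acts on its protein, so these levels do not report its activity. Tcf7l1, the repressor of the family, had 79.9 and 104 CPM, against 35.7 and 45.4 CPM in OSK (1.19, SE 0.23, adjusted p = 0.0063). It lay above all 6 other libraries and passed against the other omission media (0.68, adjusted p = 0.0479). Bcl9l, a co-activator that binds beta-catenin, had 75.7 and 76.9 CPM, against 38.3 and 17.8 CPM in OSK (1.53, SE 0.30, adjusted p = 0.0078). Apc2, a relative of Apc, had 6.28 and 7.70 CPM, against 2.51 and 1.75 CPM in OSK (1.75, SE 0.37, adjusted p = 0.00965). Bcl9l and Apc2 did not pass against the other omission media (adjusted p = 0.195 and 0.419), where Tcf7l1 and Tcf7l2 were higher and Apc was lower. EdgeR called 0 of 18 against OSK when the minus-GSK3i day 7 library was left out, with 3 at an unadjusted p under 0.05. It called 0 of 18 against the other omission media when the OSK without bFGF day 7 library was left out, with 4 at an unadjusted p under 0.05.

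Ligands and receptors of the pathway were called in both directions. Of 48 listed members 38 were tested, and 4 rose and 3 fell against OSK, beside 9.97% and 13.4% of all genes tested, with a median of 0.15. With only the 4 libraries of both media 0 rose and 1 fell, with 5 higher and 5 lower at an unadjusted p under 0.05, and without the minus-GSK3i day 7 library edgeR called 0, with 4 higher and 1 lower at an unadjusted p under 0.05. The GC trend removed, 1 rose and 4 fell. Among the ligands, Wnt2 had 4.58 and 3.24 CPM in minus-GSK3i, against 1.36 and 0.302 CPM in OSK (2.45, SE 0.53, edgeR, adjusted p = 0.0109). Wnt9a had 11.0 and 11.0 CPM, against 5.65 and 3.08 CPM in OSK (1.42, adjusted p = 0.0144). Wnt3 was lower, at 1.33 and 1.77 CPM, against 3.56 and 4.59 CPM in OSK (−1.38, adjusted p = 0.0357), and Wnt8a had 0 and 1.16 CPM, against 0.105 and 12.3 CPM in OSK (−3.34, SE 0.54, adjusted p = 0.00351). Among the receptors Fzd2 rose (0.94, adjusted p = 0.0192) and Fzd6 fell (−0.98, adjusted p = 0.0146). The secreted antagonist Frzb, named after its values were seen, had 6.42 and 6.16 CPM, against 2.30 and 3.02 CPM in OSK (1.23, adjusted p = 0.0457). Against the other omission media 1 rose (Frzb, 1.87, edgeR, adjusted p = 0.00897) and 4 fell, beside 4.31% and 5.44% of all genes tested. Wnt3 (−1.48, adjusted p = 0.0321) and Wnt8a (−2.42, adjusted p = 0.0167) were among the 4 that fell.

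The factors themselves differed in level. Gene counts do not separate transcripts of transfected factors from those of the cells' own genes. Klf4 had 1125 and 905 CPM in minus-GSK3i, against 365 and 383 CPM in OSK (1.44, SE 0.22, edgeR, adjusted p = 0.0031). Sox2 had 581 and 546 CPM, against 176 and 226 CPM in OSK (1.49, SE 0.25, adjusted p = 0.00389). Both were above OSK on both days, but the other omission media were high as well, with 642 to 936 CPM of Klf4 and 325 to 443 CPM of Sox2. Against those media neither passed (Klf4 0.42, adjusted p = 0.191, and Sox2 0.58, adjusted p = 0.108). Pou5f1 had 69.3 and 83.1 CPM, against 59.0 and 267 CPM in OSK, and did not pass (−0.86, SE 0.45, adjusted p = 0.202).

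**Figure D2:**
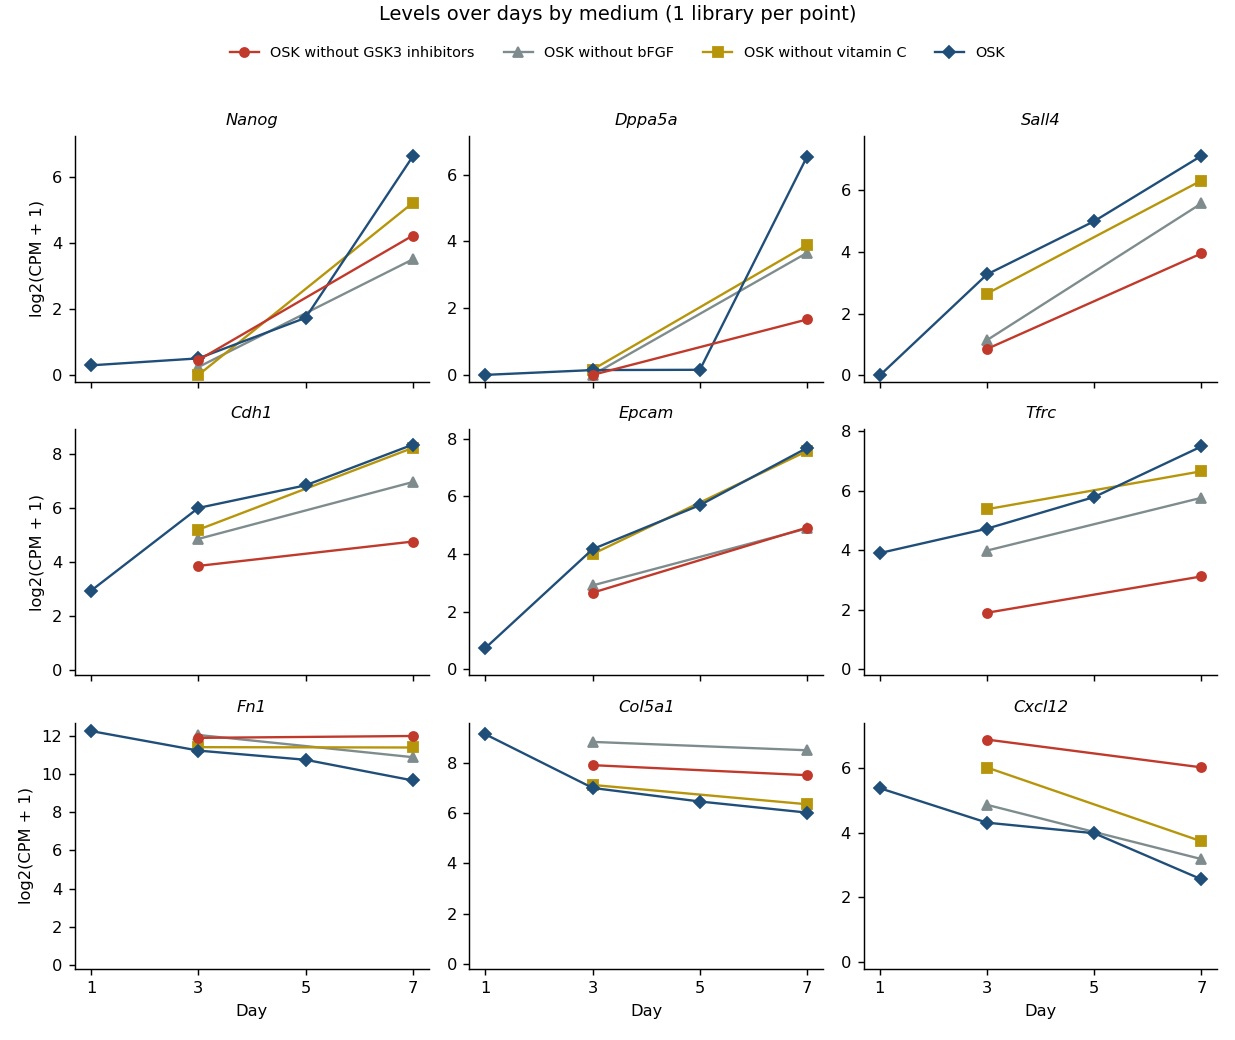
Levels of 9 genes, as log2(CPM + 1), by day, with 1 library per point: minus-GSK3i and the other omission media on days 3 and 7, OSK on days 1, 3, 5 and 7. On day 7 minus-GSK3i lies below OSK for Nanog, Dppa5a, Sall4, Cdh1, Epcam and Tfrc, and above it for Fn1, Col5a1 and Cxcl12.

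Many genes of the late pluripotency network were lower, mainly on day 7. Of 17 late and naive genes 15 were tested, and 9 fell against OSK, with a median of −2.13. Of all genes tested 13.4% fell against OSK and 5.44% against the other omission media. The comparison with the other omission media called 3 lower (Dppa5a, Lin28a and, named after its values were seen, Sall1), with a median of −1.17, and 0 by edgeR without the OSK without bFGF day 7 library, where 2 were higher and 3 lower at an unadjusted p under 0.05. DESeq2 called 2 higher and 2 lower there, and did not call Lin28a (adjusted p = 0.827). The late count rests on day 7: without the OSK day 7 library 2 fell, and without the minus-GSK3i day 7 library edgeR called 0 of 16, none of them at an unadjusted p under 0.05. Nanog, a core factor, had 0.369 and 17.8 CPM in minus-GSK3i, against 0.418 and 98.5 CPM in OSK (−2.13, SE 0.50, edgeR, adjusted p = 0.0169). With 1 library per medium and day, the values were close on day 3 and apart on day 7. In the other omission media Nanog reached 10.4 and 36.4 CPM on day 7, and the change against them was 0.09 (adjusted p = 0.932). Dppa5a had 0 and 2.16 CPM, against 0.105 and 91.9 CPM in OSK, which was 42.6-fold lower on day 7 (−5.32, SE 0.47, adjusted p = 0.000976). It also passed against the other omission media, which had 11.6 and 13.8 CPM on day 7 (−2.53, adjusted p = 0.00731). Lin28a, an RNA-binding protein that blocks let-7 maturation, had 0 counts in both minus-GSK3i libraries and in OSK on day 3, against 64 counts in OSK on day 7, at least 16.7-fold lower (edgeR, adjusted p = 0.0108), a call that DESeq2 did not make. Dppa2 (−5.85, adjusted p = 0.0105) and Prdm14 (−4.24, adjusted p = 0.016), both known for roles in early embryonic and germ cells, fell from low levels, with 6.23 and 5.20 CPM in OSK on day 7 as their highest values.

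Among 15 early pluripotency genes 12 were tested, and 2 fell and 1 rose against OSK, with a median of −0.64. Of all genes tested 13.4% fell and 9.97% rose against OSK, so these counts were near the rate over all genes. Sall4, a zinc finger factor of early reprogramming (ENSMUSG00000027547), had 0.812 and 14.5 CPM in minus-GSK3i, against 8.68 and 138 CPM in OSK. It was 10.7-fold lower on day 3 and 9.5-fold lower on day 7, with a fitted change of −3.33 (SE 0.33, edgeR, adjusted p = 0.00109). Its levels without bFGF were 1.21 and 46.7 CPM and without vitamin C 5.28 and 78.8 CPM, and it passed against those media (−1.94, adjusted p = 0.00589). Within each medium Sall4 was higher on day 7, by 3.92 log2 in minus-GSK3i and 3.96 log2 in OSK. Upp1, uridine phosphorylase, had 126 and 127 CPM, against 69.9 and 35.9 CPM in OSK (1.39, SE 0.31, adjusted p = 0.0133). Upp1 also passed against the other omission media (1.82, adjusted p = 0.00437). L1td1, which binds RNA in pluripotent cells, had 133 and 182 CPM, against 113 and 512 CPM in OSK, and did not pass (−0.66, adjusted p = 0.19). In the comparison with the other omission media 3 early genes rose and 1 fell, beside 4.31% and 5.44% of all genes tested. No early gene passed by edgeR when the minus-GSK3i day 7 library was left out (0 of 14 against OSK, with 4 at an unadjusted p under 0.05), nor against the other omission media when the OSK without bFGF day 7 library was (0 of 14, with 6).

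Genes that Tcf7l1 represses in mouse embryonic stem cells partly share members with the late list. Of 10 such genes 9 were tested, and 4 fell against OSK (Esrrb, Nanog, Nr5a2 and Rex2), beside 13.4% of all genes tested. The list's median was −0.97. Esrrb, an orphan nuclear receptor, had 0.0738 and 4.24 CPM in minus-GSK3i, against 0.209 and 44.0 CPM in OSK (−3.09, SE 0.54, edgeR, adjusted p = 0.00459). Nr5a2, another nuclear receptor, had 0 and 3.16 CPM, against 0.209 and 19.2 CPM in OSK (−2.65, adjusted p = 0.00632). Rex2, a zinc finger gene with close relatives that could share its reads, had 0.960 and 1.54 CPM, against 2.72 and 14.5 CPM in OSK (−2.49, adjusted p = 0.00546). With the other omission media as the comparison edgeR called 0 of 9, with 3 higher and 3 lower at an unadjusted p under 0.05 and a median of 0.10, and DESeq2 called 1 higher and 1 lower. Tbx3 had 27.6 and 23.3 CPM, against 24.2 and 19.7 CPM in OSK (0.23, adjusted p = 0.486), and Tfcp2l1 had 362 and 418 CPM, against 697 and 401 CPM in OSK (−0.50, adjusted p = 0.276). Leaving out the OSK day 7 library left 2 lower against OSK, and leaving out the minus-GSK3i day 7 library left 0 by edgeR, with 1 higher and 1 lower at an unadjusted p under 0.05.

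**Figure D3:**
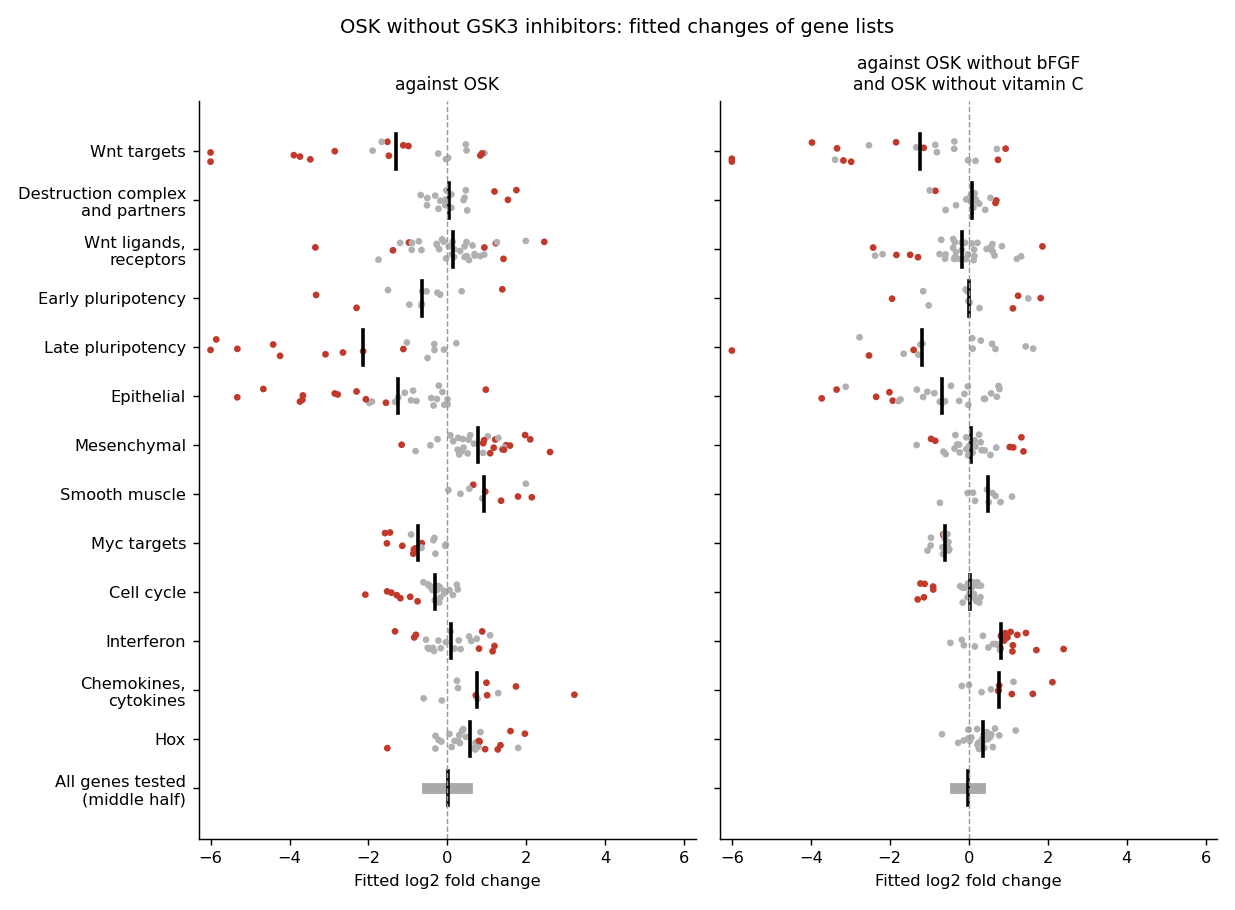
Fitted log2 changes of minus-GSK3i against OSK (left) and against the other omission media (right) for the tested genes of 13 lists, 1 point per gene, limited to between −6 and 6 for display, with red for adjusted p under 0.05 and a bar at each list's median. Against OSK the medians run from −2.13 for late pluripotency genes to 0.92 for smooth muscle genes, and the lowest band spans the middle of all genes tested around 0.01.

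Against OSK, more epithelial genes were called lower than higher, and more mesenchymal genes were called higher than lower. In bulk RNA fewer cells of a type and less RNA per cell cannot be told apart. All 27 epithelial junction and regulator genes were tested, 10 fell and 1 rose against OSK, with a median of −1.25. Of all genes tested 13.4% fell and 9.97% rose against OSK. Against the other omission media 5 of the 27 fell, beside 5.44% of all genes tested, with a median of −0.67. Cdh1, which encodes E-cadherin, had 13.4 and 25.9 CPM in minus-GSK3i, against 62.8 and 323 CPM in OSK, and 27.8 to 297 CPM in the other omission media. It lay below all 6 other libraries (−2.85, SE 0.43, edgeR, adjusted p = 0.00361, and −2.01, adjusted p = 0.0158, against the other omission media). Epcam, an epithelial adhesion protein, had 5.32 and 29.2 CPM, against 17.0 and 204 CPM in OSK (−2.30, SE 0.38, adjusted p = 0.00449). Its level on day 7 was 28.6 CPM without bFGF and 189 CPM without vitamin C, and it did not pass against those media (−1.15, adjusted p = 0.0633). Dsg2, a desmosomal cadherin, had 0.443 and 1.54 CPM, against 4.18 and 54.1 CPM in OSK (−4.66, SE 0.52, adjusted p = 0.00158). The regulators of epithelial splicing and transcription Esrp1 (−5.32, adjusted p = 0.00398) and Grhl2 (−3.74, adjusted p = 0.00396) fell, as did the polarity gene Crb3 (−2.78, adjusted p = 0.00763). Jup, named after its values were seen, encodes plakoglobin, a relative of beta-catenin in junctions, and had 355 and 463 CPM, against 192 and 227 CPM in OSK (0.97, adjusted p = 0.0255). When the minus-GSK3i day 7 library was left out edgeR called 0 of 27, with 5 lower and 1 higher at an unadjusted p under 0.05, and without the OSK day 7 library 6 fell. Without the OSK without bFGF day 7 library 0 of 27 passed against the other omission media by edgeR, with 7 lower and 1 higher at an unadjusted p under 0.05.

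All 32 listed mesenchymal genes were tested. Against OSK 12 rose and 1 fell, beside 9.97% and 13.4% of all genes tested, with a median of 0.79. Against the other omission media 4 rose and 2 fell, beside 4.31% and 5.44% of all genes tested, with a median of 0.05. Fbln2, a matrix glycoprotein, had 666 and 469 CPM in minus-GSK3i, against 191 and 110 CPM in OSK, and 131 to 325 CPM in the other omission media (1.97, SE 0.25, edgeR, adjusted p = 0.00183, and 1.33, adjusted p = 0.00526). S100a4, a fibroblast calcium-binding protein, had 78.5 and 47.8 CPM, against 35 and 16 CPM in OSK (1.40, SE 0.24, adjusted p = 0.00421). Both genes lay above all 6 other libraries. Of the members named after their values were seen, Snai1 did as well, whereas Cdh2, Lum and Zeb2 lay below all 6. In each direction this was 3 of 32 members (9.38%), beside 9.23% of all genes tested above and 7.79% below. Col5a1, a fibrillar collagen chain, had 239 and 181 CPM, against 127 and 63.8 CPM in OSK (1.21, SE 0.23, adjusted p = 0.00662). Without bFGF it was higher still, at 455 and 361 CPM, and the change against the other omission media was 0.03 (adjusted p = 0.953). Loxl1, which crosslinks elastin (2.60, adjusted p = 0.00261), Twist2 (2.10, adjusted p = 0.0037) and Pdgfrb (1.59, adjusted p = 0.0066) also rose. Fibronectin (Fn1), named after its values were seen, had 3830 and 4099 CPM, against 2411 and 815 CPM in OSK (1.49, adjusted p = 0.0333). Zeb2, named likewise, is a transcriptional repressor of epithelial genes and was the member that fell, with 27.0 and 38.2 CPM, against 66.7 and 77.5 CPM in OSK (−1.16, adjusted p = 0.00782). The summed level of the list was 19863 and 17261 CPM in minus-GSK3i, against 17755 and 7861 CPM in OSK, so the libraries differed mainly on day 7. Leaving out the minus-GSK3i day 7 library left 0 of 32 by edgeR, with 10 higher and 1 lower at an unadjusted p under 0.05, and leaving out the OSK without bFGF day 7 library left 1 higher against the other omission media.

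Contractile smooth muscle genes were higher against OSK. Of 12 members 10 were tested, 5 rose and 0 fell by edgeR, beside 9.97% and 13.4% of all genes tested. At an unadjusted p under 0.05, 0 were lower, DESeq2 called 5 higher and 0 lower, and the median was 0.92. Acta2, smooth muscle actin, had 71.8 and 89.9 CPM in minus-GSK3i, against 42.5 and 25.5 CPM in OSK (1.36, SE 0.31, adjusted p = 0.0138). Tagln (1.79, adjusted p = 0.00409), Myl9 (2.14, adjusted p = 0.00494), Smtn (0.96, adjusted p = 0.0196) and Tpm1 (0.65, adjusted p = 0.0443) rose too. For the other omission media edgeR called 0 of 10, with 4 higher at an unadjusted p under 0.05, and DESeq2 also called 0. Of 16 tested genes of the TGF-beta list 5 rose and 1 fell against OSK, beside 9.97% and 13.4% of all genes tested. The list's median was 0.17, but 1 rose with the GC trend removed and 2 rose with only the 4 libraries of both media. EdgeR called 0 of them without the minus-GSK3i day 7 library, with 3 higher and 1 lower at an unadjusted p under 0.05. Thbs1, thrombospondin, had 1211 and 1232 CPM, against 452 and 151 CPM in OSK (2.26, SE 0.37, adjusted p = 0.00412), and 430 to 1774 CPM in the other omission media. Ltbp2, a latent TGF-beta binding protein, rose in both comparisons (2.68, adjusted p = 0.0083, and 1.85, adjusted p = 0.0222). Skil, a repressor of TGF-beta signalling, fell against OSK (−1.15, adjusted p = 0.00874). Of the smooth muscle genes 3 rose against OSK without the OSK day 7 library, and 0 of 10 passed by edgeR without the minus-GSK3i day 7 library, with 3 higher at an unadjusted p under 0.05.

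Growth and ribosome genes were lower, without a lower Myc transcript. All 16 listed Myc targets of nucleotide and ribosome synthesis had a negative fitted change in both comparisons. Against OSK 8 fell, beside 13.4% of all genes tested, with a median of −0.74. Against the other omission media 2 fell, beside 5.44% of all genes tested, with a median of −0.61. Both minus-GSK3i libraries lay below all 6 others for 10 of 16 (62.5%), as they did for 7.79% of all genes tested. Ncl, nucleolin, had 248 and 249 CPM in minus-GSK3i, against 441 and 1255 CPM in OSK (−1.58, SE 0.32, edgeR, adjusted p = 0.00824). Npm1, nucleophosmin, had 342 and 359 CPM, against 561 and 1602 CPM in OSK (−1.45, SE 0.31, adjusted p = 0.0111). Neither passed against the other omission media (adjusted p = 0.057 and 0.054). Odc1, the first enzyme of polyamine synthesis, had 64.2 and 86.1 CPM, against 133 and 204 CPM in OSK (−1.14, SE 0.20, adjusted p = 0.00474, and −0.63, adjusted p = 0.0495). In minus-GSK3i Ncl and Npm1 were at nearly the same level on both days, while in OSK day 7 was the highest value. Without the OSK day 7 library 4 fell against OSK and 14 fell against the other omission media. Without the OSK without bFGF day 7 library 4 fell against OSK and edgeR called 0 against the other omission media, with 11 lower at an unadjusted p under 0.05. The minus-GSK3i day 7 library left out, edgeR called 0 of 16 in either comparison, with 5 lower against OSK and 2 lower against the other omission media at an unadjusted p under 0.05.

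Of 25 cell cycle genes, all tested, 7 fell against OSK, beside 13.4% of all genes tested, with a median of −0.32. Against the other omission media 6 fell, beside 5.44% of all genes tested, with a median of 0.02. The 7 lower against OSK were Top2a, Mki67, Bub1, Cenpe, Cenpf, Kif11 and, named after its values were seen, Ccnb1. Top2a, topoisomerase II alpha, had 118 and 219 CPM in minus-GSK3i, against 308 and 605 CPM in OSK (−1.42, SE 0.22, edgeR, adjusted p = 0.00297). Mki67, the proliferation marker, had 89.9 and 211 CPM, against 207 and 346 CPM in OSK (−0.94, SE 0.23, adjusted p = 0.0177). The spindle and kinetochore genes Bub1 (−2.08, adjusted p = 0.0023), Cenpe (−1.53, adjusted p = 0.00309), Cenpf (−1.19, adjusted p = 0.00542) and Kif11 (−1.28, adjusted p = 0.00565) fell too. Pcna and Cdk1, named after their values were seen, did not pass (−0.09, adjusted p = 0.827, and −0.21, adjusted p = 0.524). No cell counts or growth rates were available for these cultures. Among 20 tested glycolysis and hypoxia genes 5 fell against OSK, beside 13.4% of all genes tested, with a median of −0.36. Eno1, enolase, had 573 and 575 CPM, against 948 and 1559 CPM in OSK (−1.07, SE 0.24, adjusted p = 0.0126), and Gapdh, named after its values were seen, did not pass (−0.06, adjusted p = 0.878). EdgeR called 0 of the 25 and 0 of the 20 genes against OSK without the minus-GSK3i day 7 library, with 8 and 6 at an unadjusted p under 0.05. It called 0 of the 25 against the other omission media without the OSK without bFGF day 7 library, with 6 lower at an unadjusted p under 0.05. Of the glycolysis genes 2 fell without the OSK day 7 library and 3 without the OSK without bFGF day 7 library.

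Interferon response genes stood out against the other omission media and less against OSK. All 23 listed genes were tested, and 13 rose against the other omission media, beside 4.31% of all genes tested, with a median of 0.82. Against OSK 4 rose and 3 fell, beside 9.97% and 13.4% of all genes tested, with a median of 0.08. Irf7, a transcription factor of the response, had 144 and 155 CPM in minus-GSK3i, against 71.3 and 65.6 CPM in OSK, and 37.4 to 81.3 CPM in the other omission media (1.14, SE 0.21, edgeR, adjusted p = 0.00523, and 1.45, adjusted p = 0.00175). Oas3, a sensor of double-stranded RNA, had 61.9 and 71.5 CPM, against 37.1 and 39.5 CPM in OSK, and 7.04 to 20.2 CPM in the other omission media (0.80, adjusted p = 0.0475, and 2.40, adjusted p = 0.000849). Both lay above all 6 other libraries, as did 6 of 23 members (26.1%) compared with 9.23% of all genes tested. The GTPase gene Tgtp1, whose close copies could share its reads, fell against OSK, with 189 and 168 CPM, against 246 and 405 CPM in OSK (−0.80, adjusted p = 0.0401), and did not pass against the other omission media (0.62, adjusted p = 0.0879). Without the OSK without bFGF day 7 library 3 interferon genes rose against the other omission media, and without the minus-GSK3i day 7 library 1 did. That omission also left 0 calls against OSK by edgeR, with 5 at an unadjusted p under 0.05. Against OSK 3 rose and 1 fell when either the OSK day 7 or the OSK without bFGF day 7 library was left out.

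Chemokine and cytokine genes were higher in both comparisons. Of 17 members 11 were tested, 5 rose against OSK and 6 against the other omission media, with a median of 0.76 in each. Of all genes tested 9.97% rose against OSK and 4.31% against the other omission media. In both comparisons 0 members fell by edgeR or DESeq2, with 0 lower at an unadjusted p under 0.05. Cxcl12, a stromal chemokine (ENSMUSG00000061353), had 116 and 63.6 CPM in minus-GSK3i, against 18.8 and 4.90 CPM in OSK, and 8.09 to 63.4 CPM in the other omission media. It lay above all 6 others, 6.17-fold higher than OSK on day 3 and 13.0-fold higher on day 7 (3.22, SE 0.34, edgeR, adjusted p = 0.00157, and 2.12, adjusted p = 0.00264). Ccl8 had 153 and 101 CPM, against 44.7 and 31.5 CPM in OSK (1.74, SE 0.22, adjusted p = 0.00181). Csf1, the growth factor of macrophages, had 153 and 164 CPM, against 91.4 and 70.5 CPM in OSK (0.99, adjusted p = 0.00975). The macrophage list showed little beside this: 6 of 12 members were tested, and Lyz2 alone rose (1.59, adjusted p = 0.0499). Its summed level was 57.5 and 45.4 CPM in minus-GSK3i, against 58.5 and 56.5 CPM in OSK, and the part of macrophages in the chemokine levels was not tested further. Without the minus-GSK3i day 7 library 1 chemokine gene (Cxcl12) rose against OSK and 0 passed against the other omission media by edgeR, with 6 at an unadjusted p under 0.05, and without the OSK without bFGF day 7 library 2 rose against the other omission media.

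Of 18 tested BMP and Id genes 3 rose and 2 fell against OSK, beside 23.3% of all genes tested in either direction, with a median of 0.46. With the GC trend removed 1 rose and 1 fell, and without the minus-GSK3i day 7 library edgeR called 0, with 3 higher and 2 lower at an unadjusted p under 0.05. Bmp4 (1.97, adjusted p = 0.012) and Bmp6 (2.38, adjusted p = 0.0135) rose, and the receptor Bmpr1a fell (−1.35, adjusted p = 0.00345). Id2, an inhibitor of helix-loop-helix factors, had 15.8 and 22.3 CPM in minus-GSK3i, against 29.6 and 55.9 CPM in OSK, and 37.4 to 100 CPM in the other omission media (−1.10, SE 0.22, edgeR, adjusted p = 0.0078, and −1.56, adjusted p = 0.00264). Id1, of the same family, went the other way against OSK (1.14, adjusted p = 0.0337). Among 20 FGF/ERK genes 4 rose and 1 fell, again beside 23.3% of all genes tested in either direction. With the GC trend removed 2 rose, and with only the 4 libraries of both media 1 rose. EdgeR called 0 without the minus-GSK3i day 7 library, with 3 higher and 1 lower at an unadjusted p under 0.05. The feedback phosphatase Dusp4 had 71.3 and 48.2 CPM, against 33.7 and 11.2 CPM in OSK (1.62, SE 0.30, adjusted p = 0.00602, and 1.44, adjusted p = 0.00834, against the other omission media).

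Of 28 tested Hox genes 7 rose and 1 fell against OSK, beside 9.97% and 13.4% of all genes tested, with a median of 0.57. Hoxb3 had 12.7 and 10.1 CPM in minus-GSK3i, against 4.39 and 1.81 CPM in OSK (1.96, SE 0.37, edgeR, adjusted p = 0.00645). With the other omission media edgeR and DESeq2 called 0 of 28, with 5 at an unadjusted p under 0.05 by edgeR. After removal of a trend with GC content 1 Hox gene rose against OSK. Genes that rose against OSK had a median GC content of 55.5% and genes that fell 42.5%, against 49.6% for all genes tested, so base composition moved with the calls.

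Of 11 neural genes tested 5 fell and 1 rose against OSK, beside 13.4% and 9.97% of all genes tested, with a median of −1.48. Pax6, an eye and neural factor, had 0.0738 and 0.770 CPM in minus-GSK3i, against 0.941 and 13.4 CPM in OSK (−3.94, SE 0.53, edgeR, adjusted p = 0.00203, and −2.53, adjusted p = 0.014, against the other omission media). Map2, a microtubule protein of neurons, had 12.5 and 15.6 CPM, against 33.6 and 48.5 CPM in OSK, and lay below all 6 other libraries (−1.52, SE 0.25, adjusted p = 0.00345). Imprinted genes were called in both directions: of 16 tested, 5 rose and 3 fell against OSK, beside 9.97% and 13.4% of all genes tested. Against the other omission media 2 rose and 3 fell, beside 4.31% and 5.44% of all genes tested. Cdkn1c, a Cdk inhibitor, had 39.1 and 48.0 CPM, against 5.54 and 8.64 CPM in OSK (2.62, SE 0.26, adjusted p = 0.00102). The noncoding RNA H19 had 529 and 609 CPM, against 132 and 147 CPM in OSK (2.04, SE 0.26, adjusted p = 0.00181). Peg10, a retrotransposon-derived gene of the placenta, had 26.7 and 60.2 CPM, against 107 and 464 CPM in OSK (−2.41, SE 0.36, adjusted p = 0.00325). Of these Cdkn1c (0.95, adjusted p = 0.0178), H19 (0.82, adjusted p = 0.0369) and Peg10 (−1.66, adjusted p = 0.0154) also passed against the other omission media. Without the OSK day 7 library 2 neural genes fell against OSK. Leaving out the OSK without bFGF day 7 library left 0 imprinted genes against the other omission media by edgeR, with 2 higher and 3 lower at an unadjusted p under 0.05. Without the minus-GSK3i day 7 library edgeR called 0 of the Hox, neural and imprinted genes against OSK, with 10 Hox genes higher, 2 neural and 8 imprinted genes at an unadjusted p under 0.05.

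Chromatin genes held 1 that rose and 5 that fell among 22 tested, beside 23.3% of all genes tested in either direction, with a median of −0.19. With the GC trend removed, and likewise with only the 4 libraries of both media, 1 fell. Without the minus-GSK3i day 7 library edgeR called 0 of 23, with 1 higher and 3 lower at an unadjusted p under 0.05. Suz12, a core subunit of Polycomb repressive complex PRC2, had 43.3 and 77.8 CPM in minus-GSK3i, against 169 and 453 CPM in OSK (−2.26, SE 0.25, edgeR, adjusted p = 0.00148, and −1.10, adjusted p = 0.0132, against the other omission media). Eed, of the same complex, fell against OSK (−0.95, adjusted p = 0.0389). The H3K27 demethylase genes split, with Kdm6a lower (−0.95, adjusted p = 0.0151) and Kdm6b higher (1.23, adjusted p = 0.0103), and neither passed against the other omission media.

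Since the medium also lacked lithium, genes of inositol recycling were examined. Of 15 members 13 were tested, 2 rose and 2 fell against OSK, beside 23.3% of all genes tested in either direction, with a median of −0.16. Without the OSK day 7 library 0 rose and 2 fell, and without the minus-GSK3i day 7 library edgeR called 0, with 2 lower at an unadjusted p under 0.05. Impa1, the lithium-sensitive inositol monophosphatase, named after its values were seen, had 49.1 and 47.3 CPM in minus-GSK3i, against 47.3 and 77.7 CPM in OSK (−0.34, SE 0.23, edgeR, adjusted p = 0.296). Impad1, a related phosphatase of the Golgi, had 90.9 and 138 CPM, against 365 and 358 CPM in OSK (−1.68, SE 0.24, adjusted p = 0.00255, and −0.89, adjusted p = 0.0282, against the other omission media). Slc5a3, the sodium/myo-inositol cotransporter, had 13.1 and 19.3 CPM, against 49.9 and 46.1 CPM in OSK (−1.61, SE 0.27, adjusted p = 0.00396), and 13.7 and 27.5 CPM without bFGF. It did not pass against the other omission media (−0.76, adjusted p = 0.0717). Genes of glycogen metabolism, which GSK3 was first known to control, held 1 that rose and 1 that fell among 13 tested. Over all genes tested the share in either direction was 23.3%. The list's median was 0, and the gene that rose was Ppp1r3d, a glycogen-targeting subunit of protein phosphatase (2.30, edgeR, adjusted p = 0.00702).

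Some of the largest changes lay outside these groups. Wfikkn2, a secreted binder of myostatin and Gdf11, had 12.2 and 21.5 CPM in minus-GSK3i, against 1.36 and 1.63 CPM in OSK, and 0.922 to 1.91 CPM in the other omission media. It was 8.96-fold higher on day 3 and 13.2-fold higher on day 7 (3.47, SE 0.38, edgeR, adjusted p = 0.00148, and 3.73, adjusted p = 0.00049). Tac2, which encodes a tachykinin, had 17.1 and 79.4 CPM, against 0.628 and 10.2 CPM in OSK (3.45, SE 0.48, adjusted p = 0.00261, and 3.33, adjusted p = 0.00187). Slc6a17, a vesicular amino acid transporter, had 20.6 and 9.78 CPM, against 3.97 and 0.483 CPM in OSK (3.28, adjusted p = 0.00315, and 2.95, adjusted p = 0.00313). On each day all 3 genes were higher in minus-GSK3i than in every other medium. The matrix genes Mgp, with 27.6 and 45.2 CPM, against 2.20 and 1.87 CPM in OSK (4.19, adjusted p = 0.00101), and Eln, with 6.20 and 15.8 CPM, against 0.314 and 0.483 CPM in OSK (4.73, adjusted p = 0.00126), rose too. Without bFGF they were also high, at 34.2 and 20.8 CPM for Mgp and 5.20 and 6.57 CPM for Eln. Lvrn, a membrane aminopeptidase (3.75, adjusted p = 0.00158), Pi16 (3.25, adjusted p = 0.00157) and the antisense RNA Prss23os (5.53, adjusted p = 0.00162, with strandedness of the counts unknown) completed the higher genes together with Gm26870 and 1700047I17Rik2. Gm26870 had 350 and 217 CPM, against 0.418 and 0.423 CPM in OSK (9.64, SE 1.90, adjusted p = 0.0183), but 3.76 to 491 CPM in the other omission media, and did not pass against them (1.21, adjusted p = 0.557).

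Among the lower genes, Tfrc, the transferrin receptor, had 2.73 and 7.70 CPM in minus-GSK3i, against 25.5 and 179 CPM in OSK, and 14.9 to 100 CPM in the other omission media. It was 9.34-fold lower on day 3 and 23.3-fold lower on day 7 (−3.98, SE 0.37, edgeR, adjusted p = 0.00101, and −3.22, adjusted p = 0.00143). Klhl3, an adaptor of a ubiquitin ligase, had 1.70 and 0.924 CPM, against 25 and 14.9 CPM in OSK (−3.91, SE 0.54, adjusted p = 0.00261, and −2.75, adjusted p = 0.0123). Zfp770, a zinc finger gene, had 4.50 and 10.1 CPM, against 54.8 and 81.0 CPM in OSK (−3.29, SE 0.30, adjusted p = 0.000976, and −2.37, adjusted p = 0.00155). All of them lay below every OSK and other omission library. The remaining genes at the low end were pseudogenes and predicted genes whose counts depend on how shared reads were assigned: Rpsa-ps10, Rpl9-ps7, Gm26733 and Gm26527. Gm26527 had 0 counts in all 6 omission libraries, against 21 and 95.6 CPM in OSK, at least 94.9-fold and 414-fold lower in minus-GSK3i. It was thus detected in OSK and in none of the omission libraries. Cyp2c70, a liver cytochrome (−5.02, adjusted p = 0.00228), and Calcoco2, a selective autophagy receptor (−3.90, adjusted p = 0.00586), fell against OSK and did not pass against the other omission media (adjusted p = 0.0937 and 0.55).

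The libraries also differed in genes of the sex chromosomes, which were examined after their values were seen. The Y-linked Ddx3y had 6.28 and 25 CPM in minus-GSK3i, against 36.7 and 105 CPM in OSK (−2.23, SE 0.35, edgeR, adjusted p = 0.00382), and Eif2s3y fell likewise (−1.56, adjusted p = 0.0038). Xist had 112 and 64.7 CPM, against 68.8 and 41.6 CPM in OSK (0.69, adjusted p = 0.376). Both Xist and Y-linked transcripts were present in all 4 libraries, and the part of the embryos' sex in the differences was not tested.

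**Figure D4:**
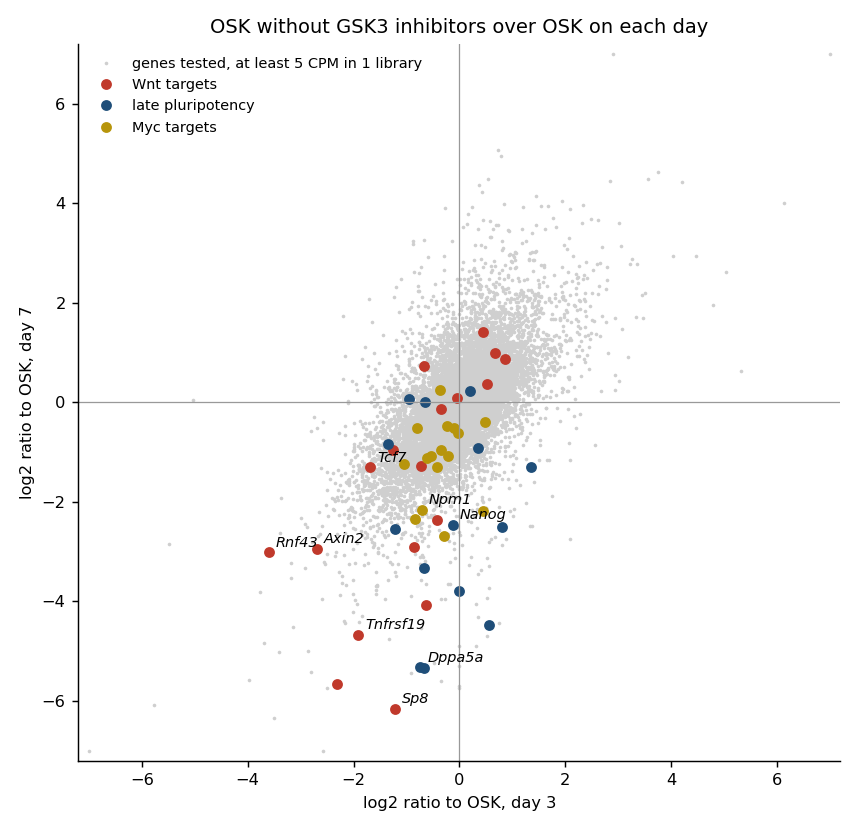
Log2 ratio of minus-GSK3i to OSK on day 3 (x axis) and on day 7 (y axis) for tested genes with at least 5 CPM in 1 of the 4 libraries, limited to between −7 and 7 for display, with Wnt targets, late pluripotency genes and Myc targets in colour. Among tested genes with at least 5 CPM on the day, more pass a 2-fold ratio on day 7 (1350 higher, 1754 lower) than on day 3 (809 higher, 1012 lower).

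Taken day by day, with no test because each value is 1 library, differences from OSK were more frequent on day 7. On day 3, 809 genes were at least 2-fold higher (7.22%) and 1012 were lower (9.03%) of 11207 with at least 5 CPM in 1 of both libraries. On day 7, 1350 were higher (11.7%) and 1757 were lower (15.2%) of 11533. Of the higher genes 370 were shared, 45.7% of the day 3 and 27.4% of the day 7 genes, and of the lower genes 588 were shared, 58.1% and 33.5%. Only 4 genes were higher on day 3 and lower on day 7, and 13 were lower on day 3 and higher on day 7. At 4-fold the counts were 117 higher and 96 lower on day 3, and 283 higher and 364 lower on day 7. Among Wnt targets 4 of the 18 with enough counts were lower on day 3 and 9 on day 7. Mcpt1, a mast cell protease, was among the largest ratios of day 3, with 28.9 CPM in minus-GSK3i, against 2.51 CPM in OSK. Srcap, a chromatin remodeller, was among those of day 7, with 105 CPM in minus-GSK3i, against 2.96 CPM in OSK. The OSK day 7 library stood alone there, since the OSK day 3 library had 68.3 CPM and the other omission libraries 90.2 to 110 CPM.

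**Figure D5:**
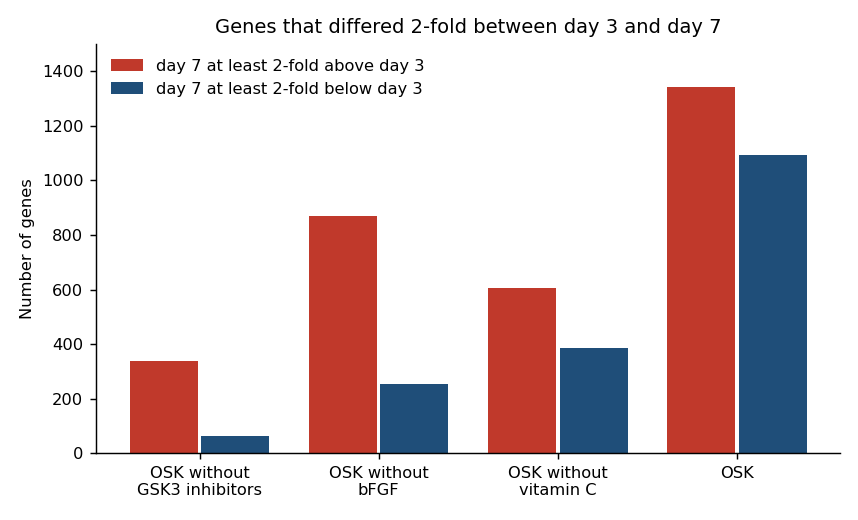
Number of genes at least 2-fold above or below their day 3 level on day 7 within each medium, among genes with at least 5 CPM in 1 of both libraries. Minus-GSK3i has the smallest bars, 339 above and 64 below, and OSK the largest, 1341 above and 1095 below.

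The number of genes that differed between day 3 and day 7 within a medium was smallest without the inhibitors. In minus-GSK3i 339 genes were at least 2-fold above their day 3 level on day 7 (3.04%) and 64 were below (0.573%) of 11169. In OSK 1341 were above (11.8%) and 1095 below (9.61%) of 11399. OSK without bFGF had 870 above and 256 below, OSK without vitamin C had 605 and 386, and fibroblasts transfected with GFP in place of OSK had 694 and 249. Of the 339 genes above in minus-GSK3i, 216 were also above in OSK, 63.7% of the minus-GSK3i genes and 16.1% of the OSK genes. Of the 64 below, 23 were also below in OSK, 35.9% and 2.1%. Sall4 was among the shared genes, while Cdh1 was higher on day 7 by 0.94 log2 in minus-GSK3i and 2.36 log2 in OSK, and Axin2 by 0.35 and 0.60 log2. With 1 library per medium and day these counts have no replicate check, and a difference between media in the change over days could not be tested. The counts were not corrected for GC content, in which the libraries of a medium also differed between days, and its part in them was not tested.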

How the data were processed

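RNA sequencing libraries of 4 samples (OSK without GSK3 inhibitors and OSK, days 3 and 7) were compared, with 4 libraries of OSK without bFGF or vitamin C sharing the fit. Per the submitters' processing notes, the authors estimated expression with RSEM 1.2.4 on mm10. Not given in the sources used here were aligner settings, strandedness and read length. The deposited tables give expected counts, in which ambiguous reads are shared among genes, and, per the file headers, TPM and FPKM, of which TPM served an alternative and FPKM was not used. The deposited table of the whole series, called CPM by its name, holds whole numbers with identical quantiles in every column and was treated as the authors' score.

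Expected counts were rounded and tested with edgeR 4.0.16 (limma 3.58.1, R 4.3.3): TMM scaling, filterByExpr by medium, robust quasi-likelihood fits with day as a block, Benjamini-Hochberg adjustment and a prior count of 2 in single-day ratios. Alternatives used DESeq2 1.42.0, limma on log2(TPM + 1) with a pseudocount of 1, and a loess correction for GC content (span 0.3). Tables were handled with pandas 2.3.3, numpy 2.4.6 and scipy 1.17.1 in python 3.11.15, and figures with matplotlib 3.10.9. Named genes are all members of the 3 Wnt lists of targets, destruction complex and Tcf7l1-repressed genes, the factors, the 10 largest changes per direction among genes past the threshold whose mean reached 5 CPM, up to 6 members of every other list by smallest p, and the 5 largest single-day ratios per direction with at least 10 CPM. The comparison, the members and the 37 gene lists were chosen with earlier results of these data known. In simulated data for the comparison with OSK (13973 genes, 200 changed), 49 of 50 genes at a log2 change of −2, 20 of 50 at −1, 14 of 50 at 1 and 50 of 50 at 2 were recovered, with 11 false calls. The simulated libraries had a common dispersion and no difference between days or between the other media. Changes were placed only in genes with a mean of at least 50 counts. Recovery near the floor, and false calls under day effects like those of the real libraries, were therefore not measured. The result of 1 gene is not reported here.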

Additional observations from a re-analysis of the deposited data

Results flagged for a closer look

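Nr0b1 (Dax1), an orphan nuclear receptor of the pluripotency network and 1 of the genes that Tcf7l1 represses in mouse embryonic stem cells, lay in opposite directions on the 2 days. It had 5.61 CPM in OSK without GSK3 inhibitors, against 2.09 CPM in OSK on day 3 (log2 ratio 1.36), and 4.78 CPM, against 12.0 CPM in OSK on day 7 (log2 ratio −1.30). The difference between the days was not tested, since each value is 1 library, and the fitted change over both days was −0.09 (edgeR, adjusted p = 0.93). No group held the 4 samples that a check for single outlying libraries needs.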

How the results depend on the processing

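The calls depend on the design more than on the scaling. Against OSK (1415 higher, 1895 lower), the counts were 291 and 547 with only the 4 libraries of both media, 0 and 0 with no day block, 588 and 764 after GC correction, and 504 and 623 with limma on the table of the whole series. Limma on TPM lowered the lower calls to 1244, which made 52.0% of calls higher, against 42.7%. Restricted to genes that also passed against the other omission media, they were 366 and 646. Leaving out 1 library gave 3 to 2122 higher and 2 to 2406 lower. Against the other omission media (611, 772) the counts were 16 and 1 with no day block, 340 and 298 with limma on TPM (53.3% higher, against 44.2%), 224 and 193 with the series table, and 455 and 289 after GC correction (61.2% higher). Leaving out 1 library gave 13 to 1317 higher and 1 to 1710 lower. Without the OSK without bFGF day 7 library they were 78 and 44, and without the minus-GSK3i day 3 library 266 and 166. Other normalization, DESeq2 and count filters kept all these counts within 1.5 times.

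Wnt targets lower (10) numbered 4 with only the 4 libraries, 0 with no day block, 5 with limma on TPM, 5 with the series table and 0 to 10 with 1 library left out. Late pluripotency genes lower (9) numbered 4, 0, 1, 1 and 0 to 10, and 5 with at least 5 CPM in 2 libraries. Epithelial genes lower (10) numbered 5, 0, 4, 5 and 0 to 13. Mesenchymal genes higher (12) numbered 5 with only the 4 libraries, 0 with no day block and 0 to 17 with 1 library left out. Counts of 0 are edgeR's, with no day block, where 6 Wnt targets, 1 late and 3 epithelial genes were lower and 9 mesenchymal genes higher at an unadjusted p under 0.05.

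Single-day counts at 4-fold were 117 and 96 on day 3 and 283 and 364 on day 7, and the day 3 higher count was 1260 at 1 CPM. Day 7 over day 3 in minus-GSK3i gave 610 and 199 at 1 CPM and 46 and 1 at 4-fold, and in OSK 379 and 189 at 4-fold. On the series table Scd2 had no change (0). Signs reversed for Kdm4c (0.22) and Spred1 (0.20) on it, Ugp2 (0.10) after GC correction and, with 1 library left out, Prdm14 (−4.48 to 1.08, the highest without OSK day 7) and Dsg3 (−5.35 to 0.62, the highest without minus-GSK3i day 7). Without minus-GSK3i day 7, Esrp1 and Lin28a also reversed against the other omission media (−5.25 to 0.92 and −7.52 to 0.42 over the libraries left out). The cause was not tested. The media were paired by day through the day block, and the labels number no replicates. Genes under about 3 counts per library are beyond the depth.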
